A study of Mus musculus with 6 samples.

Results

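Oxidative phosphorylation (OXPHOS) genes, which encode the respiratory chain and ATP synthase, were examined in mouse renal cortex after unilateral renal ischemia-reperfusion injury (UIRI), with and without bruceine A (BA). A gene was taken as a member when its symbol began with mt-, Nduf followed by a, b, c, s or v, Uqcr, Cox4 to Cox8, or Atp5, or was Sdha, Sdhb, Sdhc or Sdhd. The rule read symbols only, not measured values, and found 124 of the 19176 rows of the expression table. All mice were wild-type males of the C57BL/6J strain, aged 8 weeks. In the UIRI group (n = 3) the left renal pedicle had been clamped and vehicle was injected intraperitoneally every day, and in the UIRI + BA group (n = 3) the same surgery was followed by 1 mg/kg BA every day. The labels spell the compound brucine A, whereas the methods name bruceine A, a quassinoid from Brucea javanica. Cortex was taken on day 14, after the other kidney had been removed on the day before. No sham kidney was among the samples used here, and the values set treated against untreated injured kidneys, not injured against healthy tissue.

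Complexes I to IV of the inner mitochondrial membrane pass electrons from NADH and succinate to oxygen and, except for complex II, pump protons, and complex V (ATP synthase) uses the proton gradient to make ATP. Most subunits are encoded in the nucleus, while a small set of subunits of complexes I, III, IV and V, with the rRNAs and tRNAs needed to translate them, is encoded in mitochondrial DNA. Proximal tubule cells of the cortex are packed with mitochondria because sodium reabsorption needs ATP, and loss of mitochondria is a known feature of tubules that fail to repair after ischemia.

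Of the members, 95 were nuclear and 29 were mitochondrially encoded (prefix mt-). The nuclear set held 78 subunits, of which 37 belong to complex I, 4 to complex II, 8 to complex III, 12 to complex IV and 17 to complex V. Ndufa4 was counted with complex IV, where its protein sits, and Ndufb1-ps was counted as a subunit because the mouse subunit gene carries that symbol. The nuclear set also held 8 complex I assembly factors (Ndufaf1 to Ndufaf8), 5 tissue or stress isoforms of complex IV (Cox4i2, Cox6a2, Cox6b2, Cox7a1 and Ndufa4l2) and 4 further symbols ending in -ps. The mitochondrial set held 12 mRNAs, 2 rRNAs and 15 tRNAs, and mt-Atp8 had no row under that symbol in the expression table.

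Values are normalized counts, that is reads on a gene divided by a size factor of the library, and are not corrected for gene length unless this is said. Libraries held 16510720 to 38124164 reads on genes, with UIRI 3 at 2.04 times the median depth of the others. Differences are log2 fold changes of UIRI + BA over UIRI on log2(value + 1), tested with limma across all 19176 rows. Calls were made at an adjusted p under 0.05, and a count at an unadjusted p below 0.05 is given as a description. The libraries of a group are described as independent biological replicates, and p-values measure the spread between them. Cortex is a mixture of cells, and fewer cells of a type cannot be told apart from less RNA per cell.

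No OXPHOS gene was called between the groups. At an adjusted p below 0.05 limma called 0 of the 124 members and 0% of all rows, with a lowest adjusted p of 0.412 among members and 0.225 among all rows. DESeq2 on the recovered whole reads also called 0 members, against 213 genes overall. At an unadjusted p below 0.05, 2 of the 95 nuclear members (2.11%) and 0 of the 29 mitochondrially encoded members passed in limma, against 10.3% of all rows (1971 genes). With DESeq2 the same counts were 1 and 1, against 7.88% of all genes with a p. Both nuclear members, Atp5b and Ndufaf1, were higher in UIRI + BA. Values of UIRI + BA lay above all UIRI values for 5 nuclear members (Atp5a1, Atp5b, Ndufa9, Ndufaf1 and Ndufb2), against 7.45% of all rows, and below them for 0 members, against 6.96% of all rows.

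The median log2 fold change was -0.01 over the 95 nuclear members and -0.04 over the 12 mitochondrially encoded mRNAs, beside -0.01 over all rows. The 7 abundant mitochondrial mRNAs, named below, had a median of -0.07 (1 higher, 6 lower), and the 5 low ones 0.15 (4 higher, 1 lower). Of all rows, 48.9% had a positive value. The 95% interval of the difference lay within 0.5 on the log2 scale on either side of 0 for 74 of the 78 nuclear subunits and for the 7 abundant mitochondrial mRNAs. Intervals were wider for the low members, and 10 of the 29 mitochondrially encoded members had an interval inside that range.

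**Figure D1:**
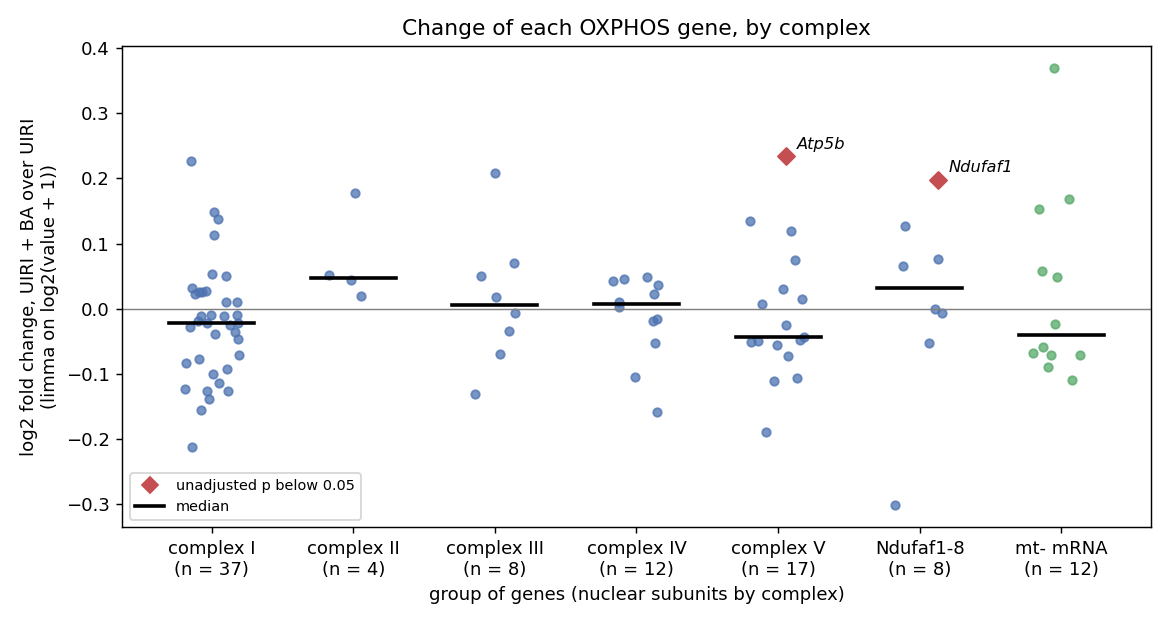
Log2 fold change of UIRI + BA over UIRI (vertical axis) for each nuclear subunit by complex, the 8 assembly factors and the 12 mitochondrially encoded mRNAs, 1 point per gene, with the median of each group as a black bar. The medians lie between -0.04 and 0.05, and Atp5b and Ndufaf1 are the 2 genes with an unadjusted p below 0.05.

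The mitochondrially encoded mRNAs lay in 2 ranges of abundance. The first 7, coding for subunits of complexes I (mt-Nd1, mt-Nd2, mt-Nd4, mt-Nd5, mt-Nd6), III (mt-Cytb) and IV (mt-Co1), lay between 14948 and 399099 normalized counts in every library. The other 5, mt-Nd3 and mt-Nd4l of complex I, mt-Co2 and mt-Co3 of complex IV and mt-Atp6 of complex V, lay between 6.02 and 456. All of these are transcribed from the same mitochondrial genome, and mt-Co2 and mt-Co3 encode core subunits of the same enzyme as mt-Co1.

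In GRCm38, these 5 genes, and none of the other 7 mRNAs, have a copy on chromosome 1 that matches at least 80% of their length with at least 98% identity. The copies are annotated pseudogenes on the minus strand between positions 24612407 and 24615565. Gm28661 matches mt-Co2 over 681 bases, Gm10925 matches mt-Atp6 over 678 bases, Gm28437 matches mt-Co3 over 783 bases and Gm10222 matches mt-Nd4l over 294 bases, each without a mismatch. Gm28438 matches mt-Nd3 over 345 bases with 1 substitution, T3C, counted from the first base of mt-Nd3. The first 120 bases of 2 pairs are shown to let gene and copy be compared letter by letter. Capitals mark the substituted base.
mt-Co2 (chrM:7013-7696, plus strand): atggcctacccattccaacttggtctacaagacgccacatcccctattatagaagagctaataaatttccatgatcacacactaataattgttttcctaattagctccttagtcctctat
Gm28661 (chr1:24614885-24615565, minus strand): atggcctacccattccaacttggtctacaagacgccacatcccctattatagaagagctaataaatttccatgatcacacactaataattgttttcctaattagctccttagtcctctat
mt-Nd3 (chrM:9459-9806, plus strand): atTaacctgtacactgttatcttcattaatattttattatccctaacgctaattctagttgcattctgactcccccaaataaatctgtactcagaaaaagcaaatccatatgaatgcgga
Gm28438 (chr1:24612775-24613119, minus strand): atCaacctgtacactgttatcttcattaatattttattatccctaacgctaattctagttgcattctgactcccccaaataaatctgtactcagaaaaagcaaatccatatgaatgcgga

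Of these 5 copies, 4 were in the table too, at low values, and Gm28661 lay between 10.8 and 20.2 normalized counts. Among the abundant genes, 2 match the same stretch of chromosome 1 over only part of their length. For mt-Nd4 the match with Gm28439 covers 876 of 1378 bases without a mismatch. For mt-Co1 the match with Gm29216 covers 492 of 1545 bases, of which 486 are identical. Other chromosomes hold longer matches of abundant genes, below the 98% bound. Gm13340 on chromosome 2 matches mt-Co1 over 100% of its length at 97.6% identity. On chromosome 4, Gm11408 matches mt-Nd6 over 100% at 93.6%, and Gm11410 matches mt-Cytb over 99.8% at 92.9%. How reads that map to more than 1 place were counted is not given in the sources used here, and the part of the copies in the low values was not tested. mt-Co2, at 6.02 to 22.7, and mt-Atp6, at 14.6 to 21.3, lay near the levels of their copies, with Gm10925 at 9.69 to 23.8. In contrast, mt-Nd3, at 192 to 456, lay above Gm28438, which reached at most 10.8. mt-Co3, at 28.8 to 85.1, also lay above its copy Gm28437, at 17.5 to 28.3. The copy of mt-Nd4l, Gm10222, had no row to compare. Whether the values of the 5 low mRNAs measure the mitochondrial transcripts was not tested, which also limits comparisons of them between libraries. Among nuclear subunits 1 of 78, Atp5g2, has such a copy (Gm10175), at 841 to 1088 normalized counts, and the 3 of the 4 -ps symbols that could be placed match other genes in the same way.

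**Figure D2:**
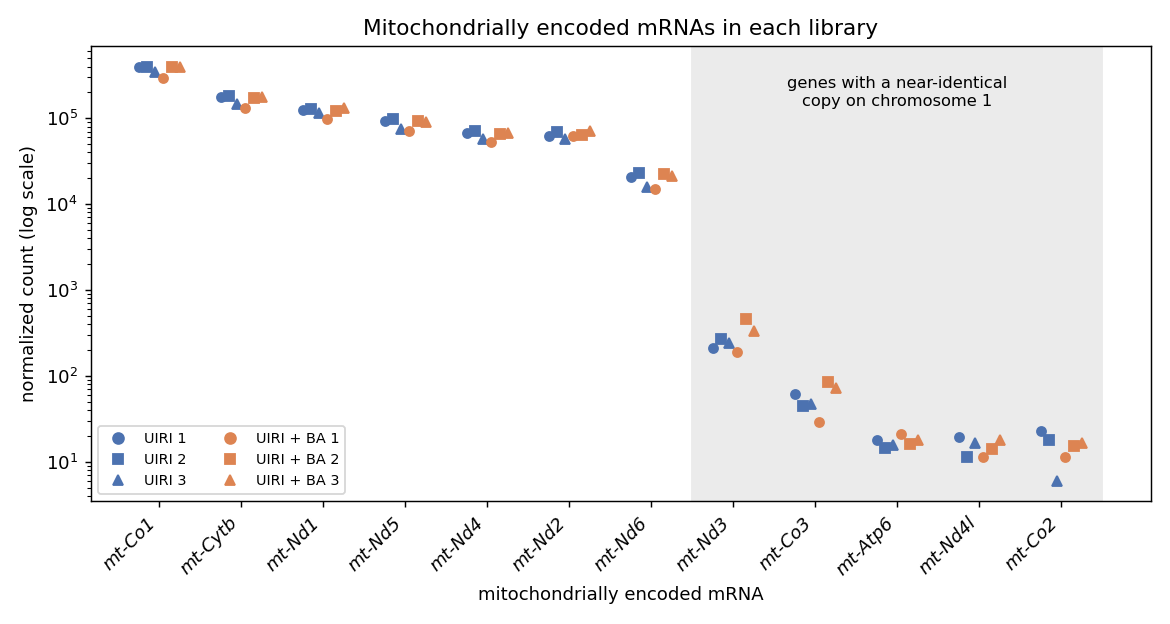
Normalized count (vertical axis, log scale) of the 12 mitochondrially encoded mRNAs in each of the 6 libraries, with UIRI in blue and UIRI + BA in orange. The 7 abundant genes lie at 14948 or above, and the 5 in the grey area, which have a near-identical copy on chromosome 1, lie at 456 or below.

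None of the 12 mitochondrial mRNAs separated the groups. mt-Co1, the catalytic subunit of complex IV, was at 399099, 397620 and 347460 normalized counts in UIRI and at 295563, 396934 and 390501 in UIRI + BA. Its lowest value was in UIRI + BA 1 and the groups overlapped, with a log2 fold change of -0.09 (SE 0.18, adjusted p = 0.871). mt-Cytb, the cytochrome b of complex III, was at 177034, 179260 and 148495 in UIRI and at 133422, 173459 and 176596 in UIRI + BA. UIRI 3 and UIRI + BA 1 were again the lowest of their groups, and the log2 fold change was -0.07 (SE 0.16).

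The 5 abundant complex I mRNAs had log2 fold changes between -0.07 (mt-Nd1 and mt-Nd4) and 0.06 (mt-Nd2). mt-Nd5, a proton-pumping subunit, was at 92718, 96821 and 74602 in UIRI and at 70762, 92444 and 90665 in UIRI + BA. mt-Nd6, transcribed from the opposite strand of mitochondrial DNA to the others, was at 20447, 22786 and 16040 in UIRI and at 14948, 22248 and 21422 in UIRI + BA. For both genes UIRI + BA 1 was the lowest library and UIRI 3 the next.

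Among the 5 low mRNAs, mt-Nd3 had the largest difference, with 210, 265 and 241 in UIRI against 192, 456 and 332 in UIRI + BA. The groups overlapped because UIRI + BA 1 was the lowest library (log2 fold change 0.37, SE 0.27, adjusted p = 0.635). mt-Co3 was at 62, 45 and 47 in UIRI and at 29, 85 and 73 in UIRI + BA. The remaining genes, mt-Co2, mt-Atp6 and mt-Nd4l, were at 6.02 to 22.7 normalized counts and had log2 fold changes between -0.11 and 0.17.

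The mt- genes together took 4.65%, 5.05% and 4.08% of the reads in UIRI and 3.68%, 4.63% and 4.67% in UIRI + BA. Counting error was at most 0.00993 percentage points on either side (95% Wilson interval of a library's share, which covers the counting of reads only). The means were 4.60% ± 0.488 (SD, n = 3) and 4.32% ± 0.558 (SD, n = 3), and the groups overlapped. Nuclear members took 1.16%, 1.13% and 1.08% of the reads in UIRI and 1.06%, 1.17% and 1.19% in UIRI + BA. Each read of a nuclear member was matched by 3.84, 4.08 and 3.64 reads of mitochondrial mRNA in UIRI. In UIRI + BA it was matched by 3.32, 3.78 and 3.76, and these ratios overlapped as well. The reads of mitochondrial mRNA came almost wholly from the abundant mRNAs. The low mRNAs summed to between 264 (UIRI + BA 1) and 586 (UIRI + BA 2) normalized counts. All mitochondrial mRNAs together summed to between 728434 (UIRI + BA 1) and 965100 (UIRI 2). Whether the low mRNAs were undercounted was not tested, so the shares and ratios may not describe the whole mitochondrial genome.

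The rRNAs of the mitochondrial ribosome, mt-Rnr1 (small subunit) and mt-Rnr2 (large subunit), were high in a single library. mt-Rnr1 was at 13180, 32661 and 9928 in UIRI and at 11042, 13444 and 11737 in UIRI + BA. mt-Rnr2 was at 22180, 58648 and 19586 in UIRI and at 17735, 24683 and 22123 in UIRI + BA. UIRI 2 thus stood above all others for both rRNAs, while its 7 abundant mRNAs averaged 0.14 on the log2 scale above the mean of the 6 libraries. According to the methods, the libraries were made from RNA selected by oligo(dT), and how much of an rRNA is kept at that step was not measured here. The 15 tRNAs had a median log2 fold change of 0.25, which was 0.51 without UIRI 3 and 0.60 without UIRI 3 and UIRI + BA 1. For 12 of them the 95% interval was not within 0.5 on either side of 0, and mt-Tl2, with the highest value (0.91, SE 0.72), was at 5 to 53 normalized counts.

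Complex I, the NADH dehydrogenase, had 13 of its 37 nuclear subunits higher and 24 lower in UIRI + BA. Their median log2 fold change was -0.02, and 0 of the 37 had an unadjusted p below 0.05. Ndufs1, the subunit that carries several of its iron-sulfur clusters, was at 1824, 1840 and 2279 in UIRI and at 2237, 2050 and 2273 in UIRI + BA (log2 fold change 0.15, SE 0.10). The groups overlapped through UIRI 3. Ndufv1, which binds NADH and flavin, was at 2483, 2470 and 2370 in UIRI and at 2380, 2867 and 2839 in UIRI + BA (0.14, SE 0.09).

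Ndufb2, an accessory subunit, had the highest value of the complex and lay at 221, 258 and 243 in UIRI against 291, 271 and 281 in UIRI + BA. The groups did not overlap, and the log2 fold change was 0.23 (SE 0.11, adjusted p = 0.507). Ndufa9, a subunit near the quinone channel, was at 1791, 1800 and 1884 against 1908, 1926 and 2094 and did not overlap either (0.11, SE 0.07). At the other end, Ndufa11, which helps to hold the membrane arm together, was at 707, 764 and 538 in UIRI and at 490, 632 and 603 in UIRI + BA. Here UIRI 3 lay inside the range of the treated libraries, and the log2 fold change was -0.21 (SE 0.15, adjusted p = 0.622).

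Assembly factors are not part of the finished enzyme. Ndufaf1, needed to build the membrane arm of complex I, was at 475, 496 and 508 in UIRI and at 549, 551 and 597 in UIRI + BA. The groups did not overlap and the log2 fold change was 0.20 (SE 0.09, unadjusted p = 0.0454, adjusted p = 0.484). Ndufaf4 was at 940, 1003 and 1165 against 1151, 1118 and 1113 (0.13, SE 0.09), and Ndufaf8 had the lowest value of the 8 factors (-0.30, SE 0.19), with the groups overlapping. The 8 factors were split evenly, with 4 higher and 4 lower.

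Complex II, succinate dehydrogenase, is also an enzyme of the citrate cycle and is encoded in the nucleus alone. All 4 subunits had positive log2 fold changes, between 0.02 (Sdhd) and 0.18 (Sdha), and none passed the unadjusted threshold. Sdha, the flavoprotein that oxidises succinate, was at 5564, 5262 and 6551 in UIRI and at 6566, 6227 and 6775 in UIRI + BA. UIRI 3 overlapped with the treated libraries (SE 0.09, adjusted p = 0.546). Sdhb, the iron-sulfur subunit, differed by 0.04 (SE 0.08), and Sdhc, a membrane anchor, by 0.05 (SE 0.07).

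Complex III, which passes electrons from quinone to cytochrome c, had 4 nuclear subunits higher and 4 lower (median log2 fold change 0.01). Uqcrc2, a core protein of the complex, was at 2453, 2417 and 3172 in UIRI and at 2931, 3020 and 3275 in UIRI + BA. UIRI 1 and UIRI 2 lay below the treated libraries and UIRI 3 among them (0.21, SE 0.11, adjusted p = 0.546). The other core protein, Uqcrc1, differed by 0.07 (SE 0.08) and the Rieske iron-sulfur protein, Uqcrfs1, by 0.02 (SE 0.09). Uqcrq, a small accessory subunit, had the lowest value (-0.13, SE 0.17).

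In complex IV, cytochrome c oxidase, the 12 nuclear subunits had log2 fold changes from -0.16 (Cox7a2l) to 0.05 (Cox5a), 7 of them higher and 5 lower. Cox4i1, the widely expressed regulatory subunit, was at 8841, 8564 and 7909 in UIRI and at 7333, 8539 and 8575 in UIRI + BA (-0.05, SE 0.09). Cox5a differed by 0.05 (SE 0.08) and Cox5b by -0.02 (SE 0.11). Cox7a2l, which takes part in joining complexes III and IV into supercomplexes, was at 4342, 3884 and 3670 against 3307, 3826 and 3522 and overlapped (SE 0.09, adjusted p = 0.562).

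The tissue isoforms of complex IV were below their partners in both groups. Per kilobase of transcript, the mean level in UIRI was 18.5 for Cox4i2 against 11326 for Cox4i1, and 12.1 for Cox6a2, the heart and muscle form, against 5477 for Cox6a1. Cox7a1, another muscle form, was at 156 per kilobase against 4825 for Cox7a2, Cox6b2 at 937 against 5085 for Cox6b1, and Ndufa4l2, a hypoxia target, at 245 against 6669 for Ndufa4. In UIRI + BA the same levels were 18.6 and 10939, 12.3 and 5512, 184 and 4983, 886 and 5172, and 218 and 6918. Ndufa4l2 was at 244, 233 and 209 normalized counts in UIRI and at 179, 196 and 236 in UIRI + BA, with overlapping groups (log2 fold change -0.17, SE 0.13). Cox4i2 and Cox6a2 had at most 19 normalized counts in any library. Of 6 markers of brown fat and skeletal muscle (Ucp1, Cidea, Acta1, Ckm, Myh1 and Mb), 0 had a row in the expression table. Its rows held at least 10 reads over the 6 libraries.

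Complex V, ATP synthase, held the nuclear subunit with the lowest p. Atp5b, the catalytic beta subunit, was at 16985, 16070 and 17123 normalized counts in UIRI and at 18725, 20169 and 20150 in UIRI + BA. All 3 treated libraries lay above all 3 vehicle libraries, and the log2 fold change was 0.23 (SE 0.08, 95% interval 0.05 to 0.42). The unadjusted p was 0.0175 and the adjusted p 0.412, and an exact two-sided permutation test gave its smallest possible p of 0.1. Atp5a1, the alpha subunit that alternates with beta in the head of the enzyme, was at 14071, 13699 and 14324 against 14740, 15650 and 15829. These groups did not overlap either (0.13, SE 0.08, adjusted p = 0.564). Atp5c1, the gamma subunit of the rotating shaft, was at 5115, 5013 and 4940 against 5109, 5500 and 5784 and overlapped (0.12, SE 0.07).

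Smaller complex V subunits had values on both sides of 0, and 10 of the 17 subunits were lower. Atp5e, the epsilon subunit, was at 2635, 2591 and 1676 in UIRI and at 1596, 2231 and 2171 in UIRI + BA (-0.19, SE 0.19). Its lowest values were in UIRI + BA 1 and UIRI 3. The proton-carrying c ring is made from identical proteins encoded by Atp5g1, Atp5g2 and Atp5g3, of which Atp5g3 was the most abundant at 9914 per kilobase in UIRI and 10448 in UIRI + BA, against 2899 and 2915 for Atp5g1 and 2235 and 2203 for Atp5g2. Their log2 fold changes were 0.07 (SE 0.07), 0.01 (SE 0.09) and -0.03 (SE 0.11). Atpif1, the inhibitor of ATP hydrolysis by the enzyme and not a member by the rule, was at 2369, 2333 and 1935 in UIRI and at 1655, 2127 and 2040 in UIRI + BA (-0.19, SE 0.12, adjusted p = 0.582).

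**Figure D3:**
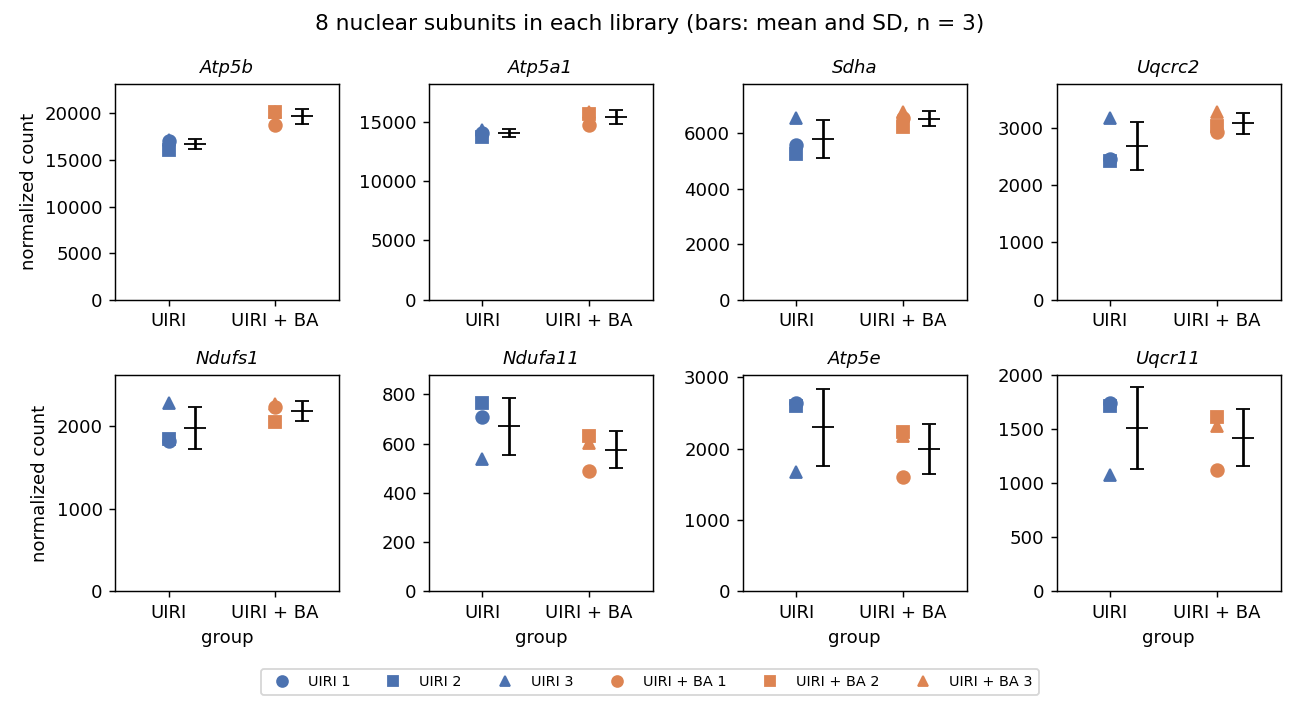
Normalized counts (vertical axes, each from 0) of 8 nuclear subunits in each library, with the mean and SD of each group (n = 3) as black bars. Atp5b and Atp5a1 do not overlap between the groups, UIRI 3 is the highest UIRI library for Sdha, Uqcrc2 and Ndufs1, and UIRI 3 and UIRI + BA 1 are the lowest of their groups for Ndufa11, Atp5e and Uqcr11.

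Averaged over the subunits, the libraries of a group differed more from each other than the groups did. UIRI 3 was lower than both other UIRI libraries for 57 of the 78 nuclear subunits (73.1%), against 39.9% of all rows. UIRI + BA 1 was lower than both other treated libraries for 73 of the 78 (93.6%), against 35.0% of all rows, and for 56 subunits both held. Averaged over the 78 subunits, the log2 deviation from the mean of the 6 libraries was 0.09, 0.03 and -0.10 in UIRI against -0.15, 0.06 and 0.08 in UIRI + BA. The 7 abundant mitochondrial mRNAs had the same pair of low libraries, at -0.15 in UIRI 3 and -0.27 in UIRI + BA 1.

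Transcript length and base composition were set beside this pattern. Across the 78 subunits the correlation of a library's deviation with log2 transcript length was -0.50, -0.48 and 0.50 in UIRI against 0.47, -0.25 and 0.25 in UIRI + BA. With GC content it was 0.44, 0.54 and -0.53 against -0.47, 0.45 and -0.38. UIRI + BA 3 had the same signs as UIRI 3 and UIRI + BA 1, with smaller correlations, and its subunits averaged 0.08. The trend with length and GC content over all genes was then removed. The mean deviation of the subunits became 0.02, -0.04 and -0.05 in UIRI against -0.08, 0.06 and 0.08 in UIRI + BA. UIRI 3 and UIRI + BA 1, at -0.10 and -0.15 before this step, were the lowest before and after it. UIRI 2 lay close to UIRI 3 after it. The subunits share the libraries and are not replicates, so these values describe the libraries and carry no test. The 39 shortest transcripts (362 to 758 bases) averaged -0.14 in UIRI 3 and -0.18 in UIRI + BA 1, and the 39 longest (763 to 3171 bases) averaged -0.07 and -0.12. Uqcr11, a small complex III subunit, was at 1741, 1715 and 1072 in UIRI and at 1124, 1614 and 1530 in UIRI + BA. Over all 16992 genes with a mean of at least 10 and a known length, the correlation with length was -0.15, -0.16 and 0.16 in UIRI against 0.18, -0.05 and 0.0029 in UIRI + BA. The part of library composition in the subunit values was not tested.

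**Figure D4:**
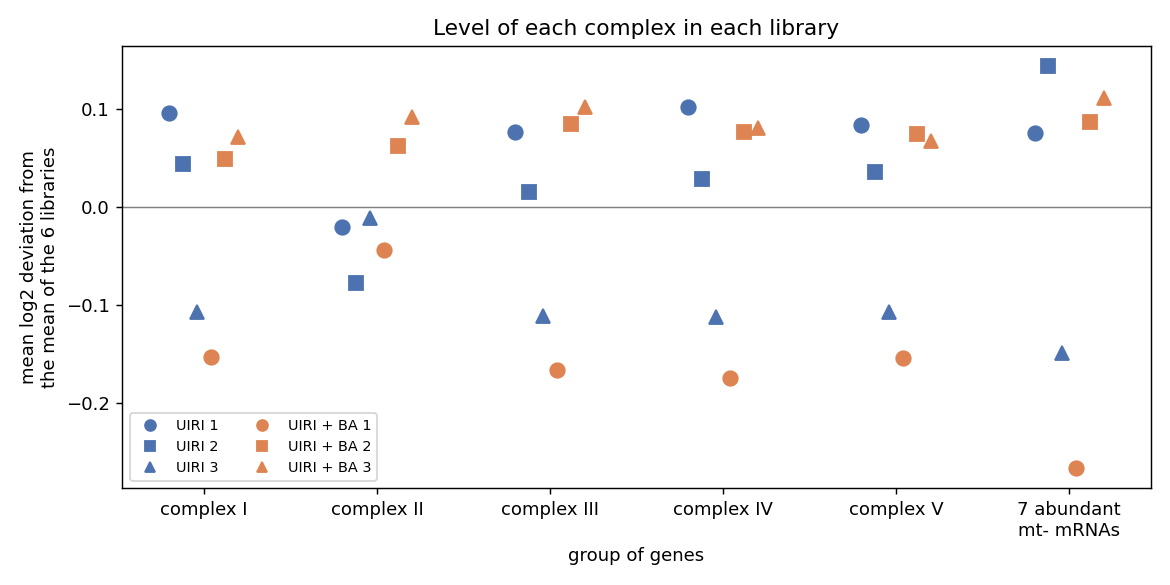
Mean log2 deviation of each library from the mean of the 6 libraries (vertical axis), for the nuclear subunits of each complex and the 7 abundant mitochondrial mRNAs. UIRI 3 and UIRI + BA 1 lie lowest for complexes I, III, IV and V and for the mitochondrial mRNAs, and complex II, with 4 genes, has a smaller spread.

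Leaving out UIRI 3 changed the picture more than leaving out any other library. Without it, 16 nuclear members passed an unadjusted p below 0.05, 6 higher and 10 lower in UIRI + BA, and 4 mitochondrially encoded members passed, 2 higher and 2 lower, against 25.2% of all rows. At an adjusted p below 0.05, 2 members were called, Uqcrc2 (log2 fold change 0.34, adjusted p = 0.0368) and mt-Tc (0.57, adjusted p = 0.0384), against 5.02% of all rows. The higher nuclear members were Uqcrc2, Sdha, Ndufs1, Atp5b, Ndufaf1 and Ndufaf4. The lower ones were Ndufa7, Ndufa11, Ndufa13, Ndufb1-ps, Ndufb11, Cox7a2l, Cox8a, Atp5d, Atp5e and Ndufaf8.

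With both UIRI 3 and UIRI + BA 1 left out, a comparison of 2 libraries with 2, 15 nuclear members passed the unadjusted threshold, 10 higher and 5 lower, and 7 mitochondrially encoded members passed, all higher, against 21.9% of all rows. Uqcrc2 (0.37, adjusted p = 0.0392) and mt-Tn (0.43, adjusted p = 0.0433) were called, against 2.88% of all rows. Atp5b (0.29), Atp5a1 (0.18), Atp5c1 (0.16), Sdha (0.26), Ndufs1 (0.24) and Ndufv1 (0.20) were among the higher ones.

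Genes that act on OXPHOS without belonging to the rule were described from lists. Of 14 regulators of mitochondrial biogenesis, 13 had positive log2 fold changes (median 0.09), 3 passed an unadjusted p below 0.05 and 0 an adjusted one. Over all rows 48.9% had a positive value and 10.3% passed the unadjusted threshold, and the counts of the other lists stand beside the same shares. Ppargc1a, the coactivator PGC-1alpha, was at 528, 525 and 802 in UIRI and at 965, 667 and 844 in UIRI + BA (log2 fold change 0.43, SE 0.18). Esrrg, an orphan nuclear receptor that activates mitochondrial genes, was at 768, 916 and 1010 against 1324, 1049 and 1111 without overlap (0.37, SE 0.12, adjusted p = 0.389). Ppara, the receptor that drives fatty acid oxidation, was at 46.4, 51.7 and 95.8 against 144, 89.4 and 99.1 (0.81, SE 0.29, adjusted p = 0.425). The activators Nrf1 and Gabpa, which bind promoters of many OXPHOS genes, had log2 fold changes of 0.02 (SE 0.08) and 0.06 (SE 0.10).

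Of 30 genes for replication, transcription and processing of mitochondrial DNA and RNA, 21 had positive values (median 0.06) and 5 passed the unadjusted threshold, all higher, against 10.3% of all rows. Tfb2m, the mitochondrial transcription factor that opens promoters, was at 595, 622 and 687 against 768, 730 and 725 (0.23, SE 0.09). The helicase Twnk was at 446, 426 and 473 against 581, 510 and 501 (0.24, SE 0.10). Fastkd2 and Lrpprc, which handle mitochondrial RNA, differed by 0.25 (SE 0.10) and 0.24 (SE 0.10). Tfam, which packages mitochondrial DNA, was at 1075, 982 and 990 against 1035, 1053 and 1081. None was called after adjustment.

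Among 45 assembly factors outside the rule, 23 were higher and 22 lower, and 2 passed the unadjusted threshold. Both serve complex I. Acad9 was at 529, 528 and 620 against 675, 625 and 683 (0.24, SE 0.10), and Tmem126b at 888, 864 and 864 against 1010, 997 and 971 (0.19, SE 0.07), without overlap for either. Of 18 citrate cycle and pyruvate dehydrogenase genes, 16 were higher (median 0.13) and 2 passed the unadjusted threshold, among them Idh3a (0.20, SE 0.08), a subunit of isocitrate dehydrogenase.

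Cell type markers had larger differences in value, without a call. All 12 proximal tubule markers were higher in UIRI + BA (median log2 fold change 0.75), 11 at an unadjusted p below 0.05 and 0 at an adjusted one. Their summed level was 42528 to 63445 normalized counts in UIRI and 72115 to 87592 in UIRI + BA. The mean log2 level of the markers was 10.5, 10.6 and 11.3 in UIRI against 11.5, 11.4 and 11.6 in UIRI + BA, so UIRI 3 stood closest to the treated libraries. Without UIRI 3, 11 of the 12 markers passed an adjusted p below 0.05, as did 3 of the 18 citrate cycle genes and 2 of the 14 biogenesis regulators, against 5.02% of all rows. Lrp2, the endocytic receptor megalin, was at 2912, 3608 and 5119 against 7005, 5484 and 7057 (0.78, SE 0.19, adjusted p = 0.263). Nuclear subunits had a median of -0.01 in the same libraries, and the difference between the lists was not tested.

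Other marker lists differed in direction. All 6 fibroblast genes were lower (median -0.32, 4 at an unadjusted p below 0.05, summed level 82763 to 99116 in UIRI against 60851 to 79625), as were all 6 leukocyte genes (median -0.17, 0 passing, 17092 to 19453 against 15358 to 17669) and all 4 endothelial genes (median -0.06, 0 passing, 5515 to 5811 against 5094 to 5629). The 5 thick limb genes had a median of 0.13 and 1 passed (26064 to 42561 against 31898 to 44865), the 8 collecting duct genes, all higher, 0.20 with 0 passing (4585 to 5122 against 4101 to 6441), and the 3 distal tubule genes, all higher, 0.30 with 0 passing (3787 to 6134 against 4087 to 8165). Of 6 injured tubule genes, 5 were higher and 1 lower (median 0.31, summed level 393158 to 409453 against 406042 to 474105). Of these, 3 passed as higher and 1, Lcn2 (-0.51, SE 0.09), as lower. Urothelial genes were low, at 96.7 to 417 against 28.0 to 264. The part of cell composition in the OXPHOS values was not tested.

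**Figure D5:**
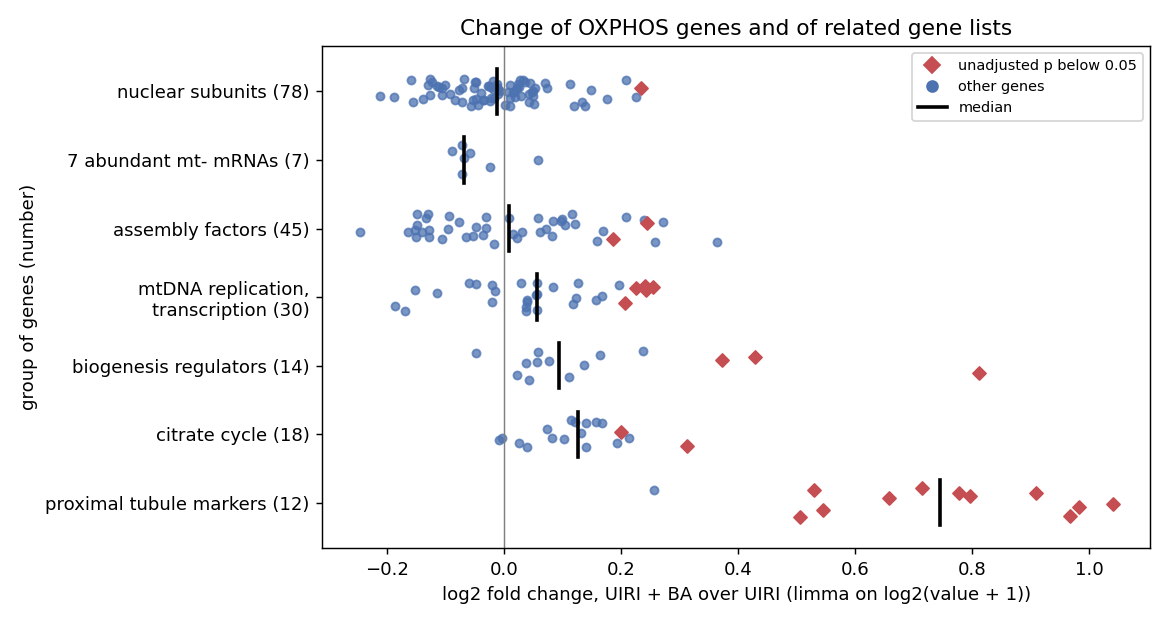
Log2 fold change of UIRI + BA over UIRI (horizontal axis) for each gene of 7 groups, 1 point per gene, with the median as a black bar and genes at an unadjusted p below 0.05 in red. Nuclear subunits have a median of -0.01 and proximal tubule markers a median of 0.75.

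What the nuclear subunits share in sequence was read from their promoters, taken as the windows around each gene's start in RefSeq (GRCm38.p6), for 66 of the 78 subunits. Short letter strings bound by known activators of OXPHOS genes were searched on both strands, and matches of different strings may overlap. The NRF1 string GCGCNTGCG was present for 24 subunits (36.4%), against 7.12% of 27025 genes. The ETS string CCGGAAG, bound by GABPA, was present for 17 (25.8%, against 9.93%), the YY1 string AAGATGGCG for 7 (10.6%, against 1.64%) and the estrogen-related receptor string CAAGGTCA for 4 (6.06%, against 1.76%). The median GC content of these promoters was 58.7%, against 52.7%, which also bears on GC-rich strings. A match is a description of letters, not of binding. The promoter of Sdha is shown because it holds 3 NRF1 strings, in capitals, whereas that of Atp5b held none of the 4.
Sdha (GRCm38.p6, chr13:74350191-74350490, minus strand): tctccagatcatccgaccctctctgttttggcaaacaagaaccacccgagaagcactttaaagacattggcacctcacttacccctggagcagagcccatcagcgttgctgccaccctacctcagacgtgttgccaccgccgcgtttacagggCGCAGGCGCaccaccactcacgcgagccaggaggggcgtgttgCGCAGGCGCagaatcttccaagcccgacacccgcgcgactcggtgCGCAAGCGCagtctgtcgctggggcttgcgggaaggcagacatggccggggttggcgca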

How the data were processed

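The 6 libraries of renal cortex RNA, 3 of UIRI and 3 of UIRI + BA, were grouped by their labels. According to the methods, reads were aligned with HISAT2, counted with FeatureCounts and tested with DESeq2. The build, the annotation and the counting of reads with several matches are not given in the sources used here. The labels and the methods name different RNA extraction kits, and the labels also name a strand-specific SMARTER kit, which the methods do not mention. The authors deposited a signal per gene, namely reads scaled by a factor for each library, and 100% of the values came back as whole reads (tolerance 0.001). Columns of the authors' own comparison and their enrichment tables were not used.

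limma 3.58.1 (R 4.3.3) with a variance trend was fitted to log2(value + 1) over all 19176 rows, with Benjamini-Hochberg adjustment, and single genes were compared by an exact two-sided permutation test (scipy 1.17.1, smallest p 0.1). The recovered reads were also tested with edgeR 4.0.16 and DESeq2 1.42.0. The fits were tested on simulated data. Copies were found with blastn against GENCODE M21 transcripts. The members and gene lists were chosen with earlier results of these data known. Named genes were the mt- mRNAs, the core subunits, the lowest p-values and extreme values of each complex, the isoforms with their partners, and up to 4 genes of each list with an unadjusted p below 0.05, of which some are not reported here. The rRNAs, tRNAs, Uqcr11, Nrf1, Gabpa, Tfam and the markers were named outside this rule, as were members that passed without a library, after their values were seen. Further alternatives were quantile and upper quartile scaling, scaling to genes other than mt-, a filter, a pseudocount of 0.1, a replicate block and leaving out each library.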

Additional observations from a re-analysis of the deposited data

How the results depend on the processing

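The count of nuclear members at an unadjusted p below 0.05, 2 as reported, was 1 with upper quartile scaling, scaling to genes other than mt-, the replicate block and DESeq2, and 5 (all higher) after removal of the length and GC trend. Leaving out 1 library gave 0 to 16, with 1 without UIRI 1, 0 without UIRI 2, 16 without UIRI 3, 2 without UIRI + BA 1 and 0 without UIRI + BA 2 or UIRI + BA 3. Mitochondrially encoded members numbered 0 as reported, 1 with DESeq2, and 0 to 4 with 1 library left out, with 4 without UIRI 3 and 3 without UIRI + BA 1. Members at an adjusted p below 0.05 numbered 0 to 2, with 2 without UIRI 3. Without both UIRI 3 and UIRI + BA 1 these counts were 15, 7 and 2, and the median of complex II was 0.10 against 0.05 as reported (0.023 to 0.10 with 1 library left out). The length and GC trend and the pair of libraries were chosen after seeing the data. The cause of these shifts was not tested. The medians of the nuclear and mitochondrial sets and of the other complexes moved by less than the spread between replicates under every alternative run, with the nuclear median between -0.04 and 0.06 when 1 library was left out.

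With 3 libraries per group, differences under about 0.2 on the log2 scale were within the intervals of most subunits. Libraries with the same number did not deviate together (correlations -0.24, 0.30 and 0.15), nor did each correlate best with its own number, so the numbers were not taken as pairs. The 17 named genes past an unadjusted p below 0.05 had 272 values under the alternatives, of which 86 were no longer past it. That 0 had changed direction says little, because these genes were picked for a low p in the same libraries. Among the other named genes, Atp5a1 (0.18 against 0.13) and Cox6a2 (-0.59 against 0.12) moved by over 1 SD without UIRI 3 and UIRI + BA 1.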

Other observations

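Electron carriers and quinone synthesis genes, which feed complexes III and IV, were split in value, with 10 of 19 higher and 2 at an unadjusted p below 0.05. Etfdh, which passes electrons from fatty acid oxidation to quinone, was at 1456, 1433 and 1620 normalized counts in UIRI and at 1730, 1720 and 2006 in UIRI + BA (log2 fold change 0.27, SE 0.09, adjusted p = 0.389). Coq8a, a kinase-like protein of quinone synthesis, was at 658, 628 and 594 against 785, 685 and 726 (0.22, SE 0.09). Neither pair of groups overlapped, and neither gene was called.

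Of 19 genes for mitochondrial import, membrane shape and protein quality, 15 had positive values (median 0.06) and 1 passed the unadjusted threshold, the chaperonin Hspd1, at 3821, 3598 and 4931 against 5855, 4501 and 5380 (0.35, SE 0.14). Among 11 hypoxia targets 6 were higher and 5 lower, and Vegfa alone passed, at 2972, 3236 and 3178 against 3560, 3627 and 3464 (0.18, SE 0.07, adjusted p = 0.448).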
